A study of Arabidopsis thaliana with 18 samples.

Results

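An alternative 5' splice site bin is a short stretch of a gene that lies between 2 donor sites, the sites at which the spliceosome cuts the start of an intron. The bins were taken from the deposited table of alternative splicing, in which the authors give each bin an event class, and the class used here is 5'alt. That table holds 7973 bins, of which 1456 are 5'alt. Kept for testing were bins averaging 10 or more counts over the 18 libraries, in loci that averaged 50 or more and had no library below 10. These limits left 559 alternative 5' bins of 3809 bins of every class. The bin nearest to the limit from above was AT2G02410:E004, with a mean of 10.17 counts, and the nearest from below was AT5G19430:E003, with 9.94.

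The RNA came from whole plants of Arabidopsis thaliana of the Col ecotype, grown on an agarose medium in continuous white light and harvested at 9 days. There were 6 groups of 3 libraries each, wild type (WT) and gemin2 mutant plants that stayed at 22 °C or that were moved to 10 °C for 1 h or for 24 h before harvest. The labels name neither the gemin2 allele nor the number of plants in a library, and they call the source a pool of tissues. Nothing in them says that the libraries of a group came from separate cultures, so the p-values below measure the spread between these libraries, which may be partly technical. Polyadenylated RNA was sequenced, so only transcripts with a poly(A) tail were counted.

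GEMIN2 is a subunit of the complex that loads the Sm protein ring onto the small nuclear RNAs of the spliceosome. One of the particles built in this way, U1 snRNP, finds the donor site by pairing its RNA with the last bases of the exon and the start of the intron. Where neighbouring donors compete, the choice between them adds or removes the stretch between them, and this can shift the reading frame, change a few amino acids or change an untranslated region (UTR). Plants exposed to low temperature are known to change the splicing of many genes.

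GEMIN2 itself (AT1G54380) was measured first. Its level in CPM, which scale counts by library size, was 14.6 ± 1.48 (SD, n = 3) in WT and 4.21 ± 0.571 in gemin2 at 22 °C. In the cold the WT libraries were at 10.8, 10.4 and 11.8 CPM by 1 h and averaged 21.1 ± 0.587 by 24 h, and gemin2 averaged 2.99 ± 0.156 and 5.33 ± 0.439. The log2 changes of -1.80, -1.88 and -1.99 passed the threshold, with the largest adjusted p at 1.27e-08 (edgeR). Libraries held 15675913 to 53766089 gene counts. The shoot genes RBCS1A and CAB1 and the root genes EXPA7, COBL9 and CASP1 were detected in 18 of 18 libraries. Similarity within a group was measured as the mean chi-square of the gene counts of a pair of libraries. This chi-square, where higher means less alike, also grows with library depth. Library A of gemin2 after 1 h held 53766089 gene counts, against 33818136 in B and 32777883 in C. In gemin2 at 22 °C library C was the one apart (306.8 and 222, against 42.07 between A and B). Library A stood apart in the same way in gemin2 after 1 h (68.49 and 54.16, against 7.738 between B and C), in gemin2 after 24 h (39.7 and 34.33, against 9.325) and in WT after 24 h (31.33 and 17.43, against 8.093).

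The 559 bins lie in 541 loci, of which 18 hold more than 1. Their width ran from 2 to 2004 bases with a median of 24, and the most frequent width was 4 bases, found in 46 bins. A width of 10 bases or less was found in 173 bins and a width over 100 bases in 86. The width was a multiple of 3 in 279 bins. By the RefSeq annotation 408 bins were coding in at least 1 transcript, 83 lay in a 5' UTR, 54 between coding exons, 11 in a 3' UTR and 3 in genes with no coding sequence. Each of the 559 was followed directly by an intron of the deposited intron table. The upstream donor, which opens at the first base of the bin, was GT in 90.34% of bins and GC in 6.26%. The downstream donor, just after the last base, was GT in 94.99% and GC in 3.58%, and 98.88% of the donors of all introns listed there were GT. Each donor was also scored by the number of its 9 bases, 3 of exon and 6 of intron, equal to CAGGTAAGT, the sequence complementary to the 5' end of U1 RNA. The mean was 4.673 matches for the upstream donors and 5.562 for the downstream donors, against 5.919 for the donors of all introns. In 329 bins the downstream donor had more matches, in 121 the upstream donor had more, and in 109 they had equally many. Reads inside a bin come from transcripts cut at the downstream donor or not cut there at all. A higher value can therefore stand for less cutting at the upstream donor relative to the locus. The locus count covers the whole gene, so a change in coverage along the gene would also move the value. That was not tested.

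**Figure D1:**
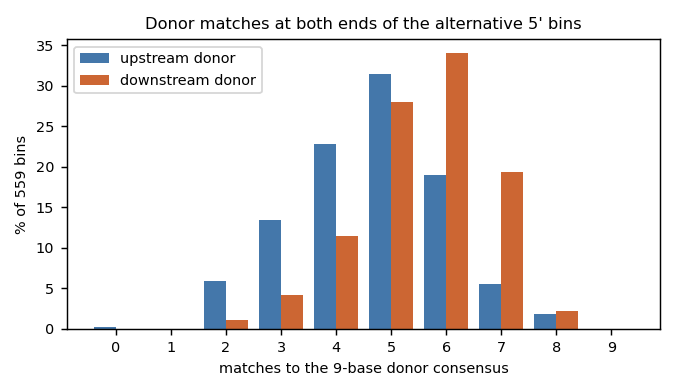
Share of the 559 alternative 5' bins (y axis, %) by the number of matches of each donor to the 9-base consensus (x axis), with a bar each for the upstream and the downstream donor. Upstream donors peak at 5 matches (31.48% of bins) and downstream donors at 6 (33.99%).

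The sequences of the bins that carry the results are printed from the RefSeq genome, read by the TAIR10 coordinates of the files. Each run holds the last 3 exon bases before the upstream donor, the bin, and the first 6 bases after it, on the strand of the gene. The 2 intron bases that open at each donor are in capitals. The following bins rose in gemin2, and their competing donors lie close enough to be shown in 1 run.
AT3G13120, bin E003 (chr3:4220267-4220291, minus strand): atgGTaacaaacaaaaaaaGTgatc
AT1G22430, bin E007 (chr1:7920496-7920509, plus strand): tagGTaaaGTcgtg
ECT4, bin E012 (chr1:20722290-20722314, plus strand): cagGCaagagaagaaaacgGTtaat
AT3G01310, bin E031 (chr3:101508-101534, minus strand): aagGTgaaatgcggctccgagGTtctg

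For bins too long for 1 run, the 9 bases around each donor are given, with its dinucleotide in capitals. The donors of the bin in AT3G55770 and of the bin in OBE2 are shown because these bins rose in gemin2 in all 3 conditions.
AT3G55770 upstream donor (chr3:20703552-20703560, plus strand): gagGTatta
AT3G55770 downstream donor (chr3:20703588-20703596, plus strand): aagGTttac
OBE2 upstream donor (chr5:19530211-19530219, minus strand): ccgGTgagt
OBE2 downstream donor (chr5:19530149-19530157, minus strand): gagGTaaaa

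Bins that fell in gemin2 are printed in the same way, to be set beside those that rose. In AT1G63660 the downstream donor opens with GC, and in FBA2 the upstream donor does.
AT1G63660, bin E004 (chr1:23604967-23604980, minus strand): ttcGTcagGCtagt
UBQ10, bin E005 (chr4:2718243-2718260, plus strand): accGTgatcaagGTaaat
ATEBP1, bin E003 (chr3:19211420-19211449, minus strand): aagGTggtggaaagaagaagaaagGTaaga
TPT, bin E003 (chr5:18697881-18697896, plus strand): tggGTaagagGTccgt
GCPE, bin E010 (chr5:24361187-24361198, plus strand): ggcGTtGTatga
SQP1, bin E003 (chr5:8172869-8172879, minus strand): ttgGTGTaagt
FBA2, bin E002 (chr4:18164121-18164133, minus strand): atgGCaaGTttct

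The last set changed with cold. MMZ3 and UEV1D-4 encode paralogous ubiquitin-conjugating enzyme variants, and their runs are identical. Reads of 1 paralog may therefore have been given to the other, and these 2 bins are reported as uncertain in that respect.
MMZ3, bin E004 (chr2:15143469-15143480, minus strand): aacGTaGTtata
UEV1D-4, bin E006 (chr3:19495260-19495271, minus strand): aacGTaGTtata
HMGB3, bin E011 (chr1:7181067-7181079, plus strand): gagGTaaGTtatt
SAG21, bin E003 (chr4:1046724-1046736, minus strand): ccgGTaaGTctct
ATBZIP34, bin E004 (chr2:17647809-17647837, minus strand): aacGTagcgtcacttcgttgcagGTacat
AT5G47620, bin E005 (chr5:19304051-19304067, minus strand): atgGTaaaattGTaagt

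The value of a bin is its count in percent of the count of its locus. Averaged over the 18 libraries it ran from 0.0355% to 64.55% with a median of 6.162%. The highest means were 64.6% for MT3, a metallothionein, 55.2% for AT2G05510, a glycine-rich protein, and 51.1% for AT4G21105, a cytochrome c oxidase subunit gene. These 3 bins passed the threshold in none of the comparisons below. The MT3 bin overlaps another gene, AT3G03105, and the library kit does not mark strand, so its reads cannot be assigned to 1 of the pair. Values depend on the width of the bin and of the gene, so they are compared here between libraries and not between genes.

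Whether the loss of GEMIN2 changes the use of neighbouring donors was asked in each of the 3 conditions. At 22 °C 15 of the 559 bins were higher in gemin2 and 0 were lower at an adjusted p under 0.05 (edgeR's quasi-likelihood test with the locus count as offset, adjusted over all 3809 bins). This is 2.68% of the bins, where 2.55% of all bins were called, 1.76% higher and 0.788% lower. After 1 h at 10 °C 34 bins were higher and 11 lower, or 8.05%, against 8.58% of all bins (6.17% higher, 2.42% lower). After 24 h 21 were higher and 6 lower, or 4.83%, against 5.8% of all bins (4.54% higher, 1.26% lower). The share called among alternative 5' bins was thus near that of all bins in each condition. The median log2 change of the 559 was 0.05, 0.10 and 0.08, beside 0.02, 0.09 and 0.07 over all bins. At an unadjusted p under 0.05 there were 94, 116 and 117 bins (16.8%, 20.8% and 20.9%), beside 16.1%, 23.4% and 20.8% of all bins. Libraries of the 2 genotypes did not overlap in 126, 146 and 117 of the 559 bins, where 22.7%, 27.8% and 21.5% of all bins showed no overlap.

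The balance of higher and lower calls depended on the scaling. With TMM factors of the bins added to the offset, which moved the median of all bins by -0.24, -0.42 and -0.20 on the log2 scale, the calls were 10 higher and 8 lower at 22 °C, 18 and 101 after 1 h, and 16 and 8 after 24 h. These factors were taken against summed locus counts, so changes in the make-up of those sums enter them. They thus mix such changes with any shift of bins against their own loci, which the locus offset does not remove. With the measured shift of bin totals against locus totals added instead, a scaling chosen after seeing the data, they were 16 and 2, 23 and 23, and 20 and 8. The median of all bins then moved by -0.14 after 1 h. Without the locus offset, where changes of the whole gene enter, TMM factors gave 34 and 19, 52 and 38, and 73 and 43. Leaving out library A of gemin2 after 1 h gave 81 calls at 1 h, 50 higher and 31 lower, while 21 remained without library A of WT, 15 without B of WT, and 21 without B or without C of gemin2. At 24 h the count was 45, with 30 higher and 15 lower, without library A of gemin2, and 17 without library C of WT. At 22 °C it was 8 without library B of WT. After 24 h WT and gemin2 libraries of the same letter deviated together, which the reported fit, having no block, does not use. With the letter as a block over all 18 libraries, 48 bins were called at 24 h, 30 higher and 18 lower, among them the 27. That block also covers 22 °C and 1 h, so it is not a pairing at 24 h alone.

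**Figure D2:**
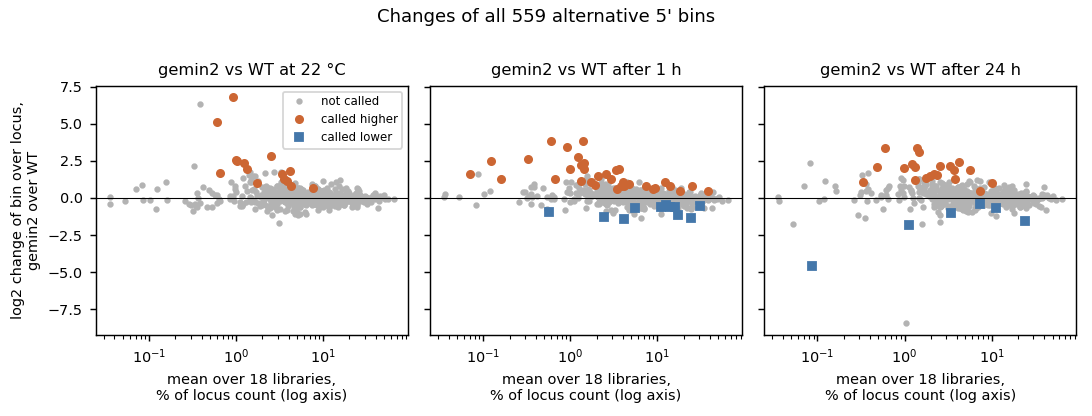
Log2 change of each of the 559 bins, gemin2 over WT (y axis), against its mean over 18 libraries in percent of the locus count (x axis, log axis), in the 3 conditions. Orange points are the 15, 34 and 21 bins called higher, blue squares the 0, 11 and 6 called lower, and grey points the rest.

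The 3 genotype comparisons share no library, so their calls were set against each other. They do share 1 fit, with the same estimate of the spread of a bin and the same filter, and are not independent replications. Of the 15 bins higher at 22 °C, 11 were also higher after 1 h (73.3% of the 15 and 32.4% of the 34), and 9 were also higher after 24 h (60.0% of the 15 and 42.9% of the 21). After 1 h and 24 h 14 were shared, which is 41.2% of the 34 and 66.7% of the 21. The same 9 bins were higher in all 3. Among lower calls 1 was shared between 1 h and 24 h, AT1G63855:E003 (9.09% of the 11 and 16.7% of the 6), which lies in the gene of a putative methyltransferase. It held 38.7%, 32.3% and 38.5% in WT and from 10.1% to 20.6% in gemin2 after 1 h, and 32.1%, 28.0% and 15.2% against 14.3%, 6.15% and 7.79% after 24 h. Neither call was steady, being lost in 5 and 11 of 18 leave-one-out fits, with adjusted p-values up to 0.116 and 0.202 without library B of gemin2 of the same time. In all, 45 bins were called higher in at least 1 genotype comparison, 16 were called lower, and 0 were called in both directions. Neither the overlaps nor these totals were counted over all bins, so they are not shown to be particular to this class of bin.

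AT3G13120, a gene of a ribosomal protein of the S10p/S20e family, holds the first of the 9 recurrent bins described here. Its bin of 16 bases lies in the 3' UTR. At 22 °C it held 0.283%, 0.436% and 0.281% of the locus count in the WT libraries and 1.78%, 1.95% and 1.41% in the gemin2 libraries. After 1 h the values were 0.234%, 0.305% and 0.173% against 1.82%, 1.86% and 1.24%. After 24 h they were 0.24%, 0.864% and 0.432% against 2.99%, 2.75% and 3.07%. The gemin2 libraries lay above the WT libraries in each condition, with no overlap. The log2 changes were 2.39 (SE 0.30, adjusted p = 3.89e-05), 2.79 (SE 0.30, adjusted p = 3.23e-06) and 2.30 (SE 0.30, adjusted p = 3.04e-05). Under the 18 fits that each left out 1 library the adjusted p of these changes stayed at or below 0.00106.

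The bin of 36 bases in the 5' UTR of AT3G55770, annotated as a GATA-type zinc finger protein, had the same order in each condition. In WT it held 1.71%, 2.49% and 1.84% at 22 °C, 1.32%, 1.33% and 1.75% after 1 h and 0.728%, 0.801% and 0.939% after 24 h. In gemin2 it held 6.61%, 6.64% and 5.64% at 22 °C, 3.86%, 6.59% and 6.61% after 1 h and 2.57%, 4.52% and 3.83% after 24 h. Library A of gemin2 was the lowest of its group after 1 h and after 24 h, yet above each WT library. The log2 changes were 1.65, 1.92 and 2.15, with the largest adjusted p at 3.11e-04. In WT the bin fell by 1.28 on the log2 scale from 22 °C to 24 h (SE 0.32, adjusted p = 0.0313), a call lost in 5 of the 18 leave-one-out fits, where the adjusted p reached 0.117 without library B of WT at 22 °C.

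AT1G22430 encodes a zinc-binding dehydrogenase family protein, and its donors are 5 bases apart, which shifts the reading frame. The bin held 1.86%, 1.59% and 0.968% in WT and 5.74%, 5.49% and 3.98% in gemin2 at 22 °C. After 24 h it held 0.957%, 1.7% and 1.65% in WT and 9.76%, 6.08% and 9.4% in gemin2. After 1 h the groups were nearer, with 2.85%, 3.18% and 3.46% against 5.41%, 6.49% and 4.6%. The groups did not overlap in any condition, and the log2 changes were 1.80 (SE 0.31, adjusted p = 0.0017), 0.79 (SE 0.24, adjusted p = 0.045) and 2.45 (SE 0.41, adjusted p = 4.08e-04) for 22 °C, 1 h and 24 h. The call at 1 h was lost in 10 of 18 leave-one-out fits, with an adjusted p up to 0.22 without library B of gemin2 after 1 h, and turned to -0.0338 without the locus offset, while the other calls were kept in each of these fits. The upstream donor of this bin has 6 matches to the consensus and the downstream donor 3. At 22 °C the intron that follows this bin held 2.33%, 0.682% and 0.968% in WT and 6.19%, 6.86% and 5.05% in gemin2. After 24 h that intron held 1.44%, 2.13% and 1.65% in WT and 5.69%, 6.76% and 17.1% in gemin2. Reads of a retained intron also fall in the bin, so its rise is not shown to be a choice of donor.

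AT1G25275 encodes a thionin-like protein, a small cysteine-rich protein. Its bin E007 of 33 bases rose from means of 0.586% ± 0.268, 0.523% ± 0.0587 and 0.412% ± 0.128 (SD, n = 3) in WT to 2.28% ± 0.216, 2.42% ± 0.254 and 1.69% ± 0.61 in gemin2 at 22 °C, 1 h and 24 h. The log2 changes were 1.99, 2.20 and 2.06, with the largest adjusted p at 2.34e-04. At 24 h the WT libraries were at 0.363%, 0.315% and 0.557% and the gemin2 libraries at 2.24%, 1.03% and 1.8%, still without overlap. The locus itself was lower in gemin2 at 24 h, by 0.94 on the log2 scale (adjusted p = 4.72e-05), and without the locus offset and with RLE factors the bin's change was 1.1 with an adjusted p of 0.0501. Another bin of the same locus, E004, passed in none of the comparisons.

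AT3G05560 encodes a ribosomal protein of the L22e family, and its bin of 223 bases lies in the 5' UTR. At 22 °C the WT libraries held 0.443%, 0% and 0% and the gemin2 libraries 0.848%, 0.77% and 0.897%. After 1 h they held 0.539%, 0.0997% and 0.59% against 1.31%, 1.86% and 1.69%, and after 24 h 0.639%, 0.598% and 0.471% against 2.74%, 1.96% and 2.24%. The log2 changes were 2.56 (adjusted p = 0.0353), 1.97 (adjusted p = 0.0083) and 2.01 (adjusted p = 7.99e-04). The call at 22 °C was lost in 5 of 18 leave-one-out fits, with an adjusted p of 0.132 without library B of WT at 22 °C, and the call at 1 h was lost without library B of WT after 1 h (adjusted p = 0.0608).

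OBE2 encodes a PHD finger protein of the OBERON family, needed for the maintenance of meristems, and its bin of 62 bases lies in the 5' UTR. In WT the libraries held 0.0696%, 0% and 0% at 22 °C, 0%, 0.155% and 0.0394% after 1 h and 0.112%, 0.185% and 0% after 24 h. In gemin2 they held 1.04%, 1.23% and 0.8%, then 0.726%, 1.14% and 1.63%, then 1.02%, 1.3% and 1.37%. The WT counts were low, with 1 count of 4239 locus counts at 22 °C against 84 of 8030 in gemin2. That is a ratio of 44.3 with a 95% counting interval of 7.74 to 1.77e+03, which covers counting error only. The fitted log2 changes after 1 h and 24 h were 3.84 (SE 0.60) and 3.37 (SE 0.64), and no leave-one-out fit lost a call of this bin. Its WT libraries held 0 to 4 counts, so the bin passed the count filter only through gemin2, where it is high.

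The other recurrent bins lie in FTSZ2-1, a plastid division protein, ATARI5, a RING-type protein of the ARIADNE family, and AT3G07565, annotated as a histone H2A deubiquitinase. FTSZ2-1 rose by 1.03, 1.07 and 1.38 on the log2 scale, from 1.05%, 1.01% and 1.16% to 2.12%, 2.12% and 2.97% of the locus count. ATARI5 rose by 1.16, 0.83 and 1.30, from means of 1.39%, 2.93% and 2.84% to 3.23%, 5.19% and 7.16%. Within ATARI5 at 22 °C the WT libraries held 1.02%, 0.902% and 2.26% and the gemin2 libraries 3.16%, 3.21% and 3.31%. AT3G07565 rose by 2.86, 1.64 and 2.13, from 0.541%, 1.07% and 1.15% to 3.64%, 3.49% and 5.34%. For these bins the largest adjusted p was 0.028 (FTSZ2-1 at 22 °C), and no WT library reached a gemin2 library of the same condition. At 22 °C the call of FTSZ2-1 was lost in 6 of 18 leave-one-out fits (adjusted p up to 0.118 without library C of WT) and that of ATARI5 without the WT libraries A (0.0859) or B (0.081). After 1 h the call of AT3G07565 was lost without A of WT, B of WT or C of gemin2 (0.0669, 0.0954 and 0.0789) and that of ATARI5 without library B of WT (0.0608). The calls after 24 h were kept in each of these fits. The WT libraries of the AT3G07565 bin held 0 to 10 counts, so it also passed the count filter only through gemin2.

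**Figure D3:**
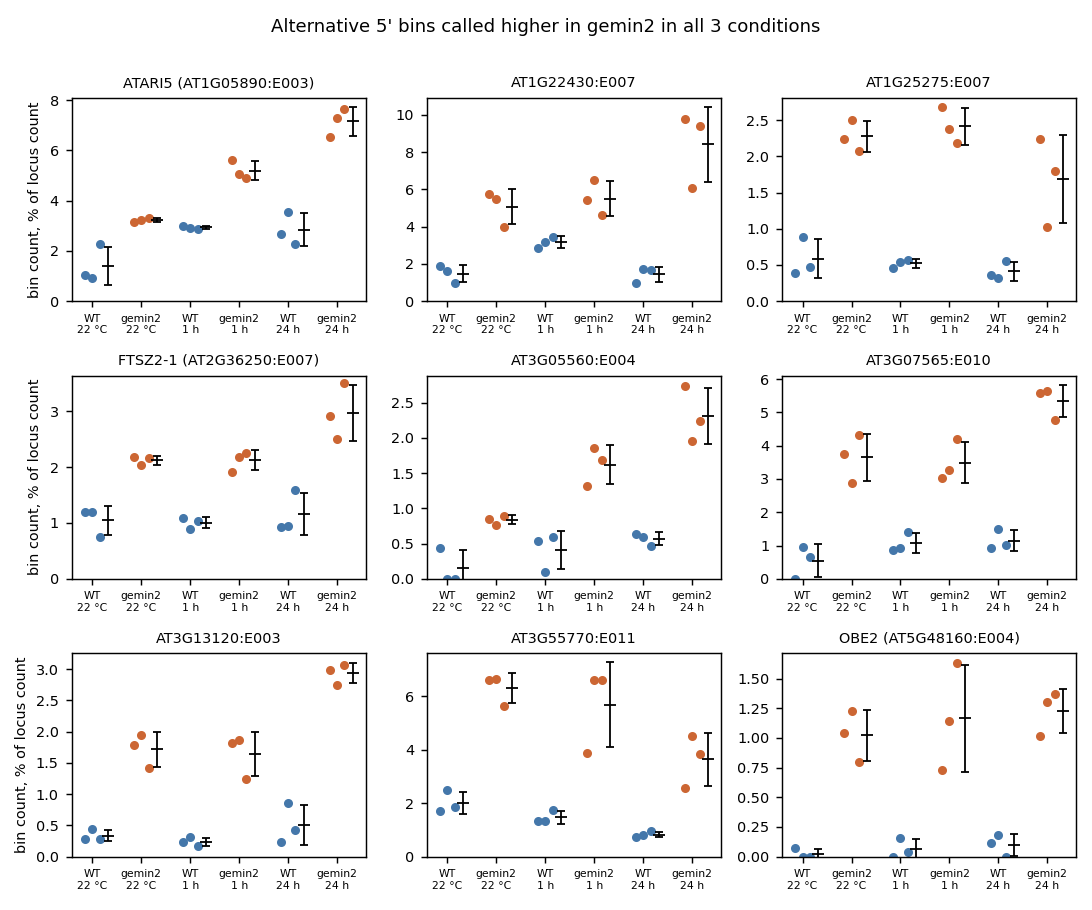
The 9 bins called higher in gemin2 in all 3 conditions, each point 1 library in percent of the locus count (y axis), by group (x axis), WT in blue and gemin2 in orange, with the mean and SD (n = 3) in black. In each panel and condition the gemin2 libraries lie above the WT libraries, as for AT3G13120 with 1.41% to 1.95% against 0.281% to 0.436% at 22 °C.

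Some rises passed the threshold in fewer conditions, and a call in 1 condition alone is no test that conditions differ. SNRK2.2, an SnRK2 kinase of abscisic acid signalling, had 0 counts of 2215 locus counts in WT at 22 °C and 58 of 5596 in gemin2, which is at least 7.65-fold higher against a floor of 3 counts over the WT group (0.135%). After 1 h it held 0.133%, 0.165% and 0.0724% in WT and 1.49%, 0.818% and 1.89% in gemin2. After 24 h the WT libraries had spread to 1.6%, 0.888% and 0.119%, and the difference from the gemin2 values of 1.95%, 2.14% and 2.06% did not pass (adjusted p = 0.154). AT2G46420, annotated as a helicase with a zinc finger and named here, like SNRK2.2, after its values were seen, had 2 counts in WT and 58 in gemin2 after 1 h, a ratio of 16.8 with a 95% counting interval of 4.44 to 142. Its call was lost without library B of WT after 1 h (adjusted p = 0.0863). Both the SNRK2.2 and the AT2G46420 bin averaged under 10 counts in WT, so they passed the count filter only through gemin2, where they are high.

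The bin of ECT4, a YTH-domain protein that binds N6-methyladenosine in RNA, opens with a GC donor upstream and a GT donor downstream. After 24 h it held 1.09%, 0.973% and 1.4% in WT and 2.84%, 4.05% and 3.61% in gemin2, with no overlap. The log2 change was 1.62 (SE 0.25, adjusted p = 1.77e-04), and the adjusted p stayed at or below 0.00317 in the leave-one-out fits. AT4G40040, a histone H3 gene with near copies in the genome that may share its reads, rose at 22 °C from 0.0898%, 0.277% and 0.325% to 0.855%, 0.936% and 0.458% (log2 change 1.72, adjusted p = 0.0284). That call was lost in 4 of 18 leave-one-out fits, with an adjusted p up to 0.163 without library A of WT at 22 °C.

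CP29 encodes a chloroplast RNA-binding protein. Its bin of 63 bases held 0.0897%, 0.0597% and 0.0377% in WT and 0.134%, 0.244% and 0.175% in gemin2 after 1 h, a log2 change of 1.59 (SE 0.32, adjusted p = 0.00499). AT4G31170, a protein kinase, held 0.938%, 0.724% and 0.515% in WT and 2.34%, 2.02% and 1.68% in gemin2, a log2 change of 1.51 (SE 0.37, adjusted p = 0.0137). The latter call was lost without library B of WT after 1 h (adjusted p = 0.064) and without library C (adjusted p = 0.0594). AT3G01310, a gene of the phosphoglycerate mutase-like family, rose at 22 °C from 2.39%, 1.41% and 1.35% to 4.05%, 4.05% and 4.53% (log2 change 1.29, adjusted p = 0.00177).

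Falls in gemin2 were called after 1 h and after 24 h. AT1G63660, which encodes GMP synthase of purine nucleotide synthesis, had the largest fall after 1 h, and its donors are 5 bases apart. It held 10.1%, 7.49% and 5.76% in WT and 4.04%, 2.75% and 1.64% in gemin2. This is a log2 change of -1.43 (SE 0.31, adjusted p = 0.00658), and the highest adjusted p in the leave-one-out fits was 0.0454. At 22 °C the groups held 4.33%, 3.25% and 3.32% against 3.12%, 3.47% and 2.0% and overlapped. The genotype by 1 h interaction of this bin was -1.10 with an adjusted p of 0.45.

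ATEBP1, the ErbB-3-binding protein gene that takes part in organ growth, held 31.8%, 35.1% and 23.7% in WT and 21.9%, 9.29% and 8.63% in gemin2 after 1 h. Library A of gemin2 was far above B and C of its group and below each WT library. The log2 change was -1.18 (SE 0.29, adjusted p = 0.0162), lost in 4 of 18 leave-one-out fits with adjusted p-values from 0.0592 to 0.106, which left out WT A, WT B, gemin2 B or gemin2 C. Without library A of gemin2 the adjusted p was 1.43e-04. UBQ10, a polyubiquitin gene whose reads may be shared with other ubiquitin genes, held 5.26%, 4.26% and 3.48% in WT and 2.93%, 1.11% and 1.29% in gemin2, again with library A highest. Its log2 change was -1.27 (SE 0.33, adjusted p = 0.0206), lost without WT A, WT B, gemin2 B or gemin2 C at adjusted p-values from 0.0659 to 0.132. Both calls were also lost in edgeR's robust fit, an alternative chosen after seeing the data, at 0.0723 for ATEBP1 and 0.0871 for UBQ10. The part of library A in these results beyond those fits was not tested.

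Library A was also the highest of gemin2 after 1 h in GCPE and in HSS. GCPE is an enzyme of the plastid isoprenoid pathway, and HSS is the annotation's name for AUXIN RESPONSE FACTOR 2. GCPE held 8.04%, 7.85% and 6.01% in WT and 5.85%, 3.93% and 4.2% in gemin2 after 1 h (log2 change -0.64, adjusted p = 0.0156). Its donors are 3 bases apart, so the alternative transcripts differ by 3 bases of coding sequence. HSS held 20.3%, 20.8% and 14.8% in WT and 13.8%, 11.3% and 11.6% in gemin2 (log2 change -0.61, adjusted p = 0.00682). The GCPE call was lost in 4 of 18 leave-one-out fits with an adjusted p up to 0.106 without library B of gemin2 after 1 h, and the HSS call without library B of WT after 1 h (adjusted p = 0.0542). After 24 h library A was also the highest of its group for ATEBP1 in WT, with 29.3%, 19.0% and 17.1%, and in gemin2, with 17.8%, 10.1% and 10.4%.

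TPT, the triose phosphate translocator of the chloroplast envelope, fell after 1 h from 0.655%, 0.671% and 1.4% to 0.461%, 0.556% and 0.414%. A log2 change of -0.95 was fitted (SE 0.22, adjusted p = 0.0108), and it was lost without library C of WT, where the change was -0.476 (adjusted p = 0.0945), and without library C of gemin2 (adjusted p = 0.064). The other bin of TPT, E011, passed in none of the comparisons. The remaining falls after 1 h were AT1G63855, AT2G43160, NHO1, FKBP16-2 and AVP1, with log2 changes from -1.34 to -0.48. AVP1, the vacuolar proton pyrophosphatase, held 16.6%, 18.4% and 14.7% in WT and 14.2%, 11.2% and 10.3% in gemin2, and its call was lost in 4 leave-one-out fits with an adjusted p up to 0.188 without library C of gemin2 after 1 h.

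After 24 h the falls were in FBA2, AT3G23900, AT1G63855, SQP1, MMZ3 and ATCUL1. MMZ3 held 17.8%, 17.1% and 18.7% in WT and from 10.1% to 11.9% in gemin2, with no overlap. The log2 change was -0.69 (SE 0.15, adjusted p = 0.00692), and the adjusted p stayed at or below 0.0345 in the leave-one-out fits. Its other bin, E002, passed in none of the comparisons. SQP1, annotated as an FAD/NAD(P)-binding oxidoreductase, whose donors are 2 bases apart, held 3.7%, 4.28% and 4.3% in WT and 1.98%, 1.46% and 2.6% in gemin2. Its log2 change of -1.02 (adjusted p = 0.0414) was lost in 7 leave-one-out fits, with an adjusted p up to 0.188 without library B of gemin2 after 24 h, and turned to 0.0868 without the locus offset.

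FBA2, a fructose-bisphosphate aldolase gene of the chloroplast, had the largest fitted fall and the least even libraries. After 24 h it held 0.0232%, 0.341% and 0.348% in WT and 0.0109%, 0.0137% and 0.0054% in gemin2. Library A of WT was near the gemin2 libraries, though above them. Its log2 change was -4.60 (SE 0.95, adjusted p = 0.00339), and no leave-one-out fit lost the call. After 1 h the gemin2 libraries themselves held 0.276%, 0.0244% and 0.205%. ATCUL1, the cullin 1 subunit of SCF ubiquitin ligases, held 9.82%, 8.21% and 9.16% in WT and 7.38%, 6.38% and 6.56% in gemin2 after 24 h. Its log2 change of -0.42 (adjusted p = 0.0311) was lost in 4 leave-one-out fits, with an adjusted p up to 0.148 without library B of gemin2, and turned to 0.202 without the locus offset.

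**Figure D4:**
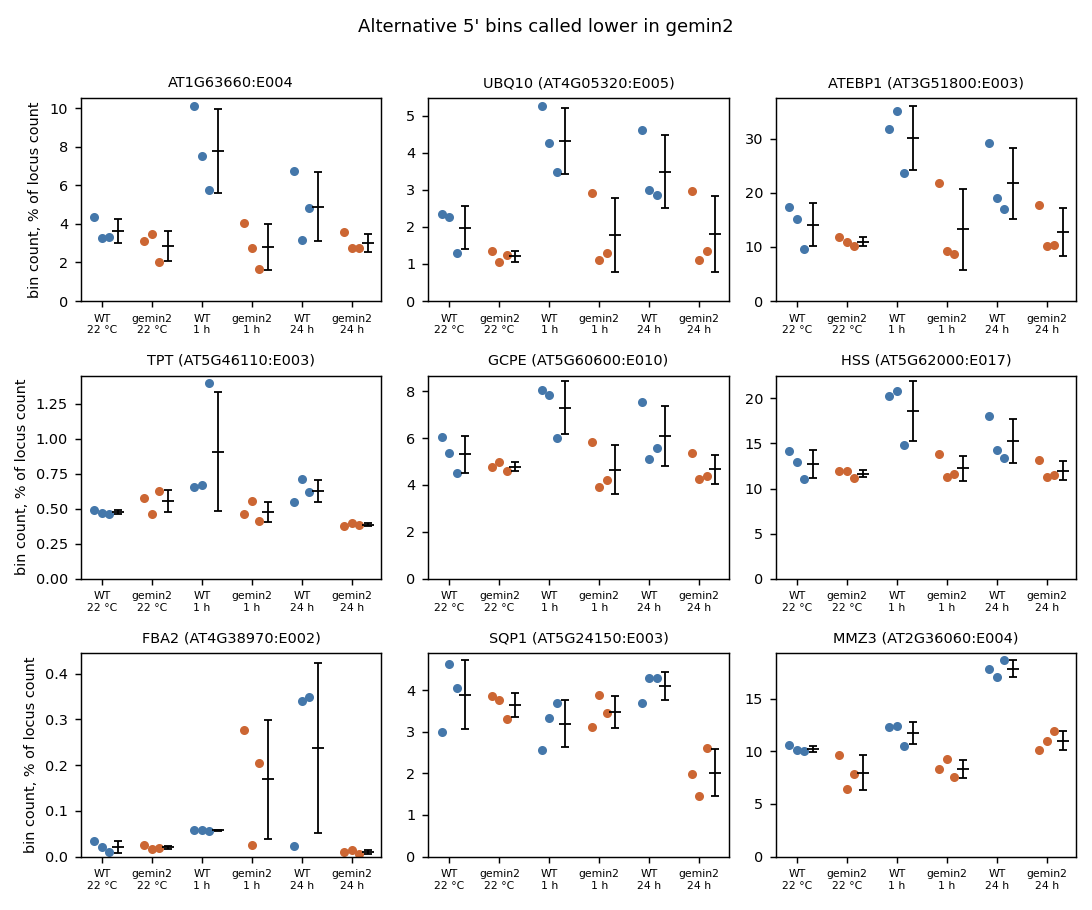
Bins called lower in gemin2 after 1 h (AT1G63660, UBQ10, ATEBP1, TPT, GCPE, HSS) or after 24 h (FBA2, SQP1, MMZ3), each point 1 library in percent of the locus count (y axis), by group (x axis), WT in blue and gemin2 in orange, with the mean and SD (n = 3) in black. In ATEBP1 after 1 h 1 gemin2 library at 21.9% lies above the others of its group at 9.29% and 8.63%, and in MMZ3 after 24 h the groups stand apart at 17.1% to 18.7% and 10.1% to 11.9%.

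The bins that rose and those that fell were then set beside their sequences, as a description and without a test. The 45 bins higher in at least 1 genotype comparison had a mean of 5.49 matches at the upstream donor and 5.33 at the downstream donor, and the upstream donor had more matches in 21 of them and the downstream donor in 17. The 16 lower bins had means of 4.06 and 6 matches, and the upstream donor had more in 2 and the downstream donor in 12. Over the 559 bins the means were 4.673 and 5.562. The median width was 59 bases for the higher bins and 8 bases for the lower bins, against 24 for all. By place, 17 of the 83 bins in a 5' UTR were higher (20.5%), against 20 of the 408 coding bins (4.9%), while 2.41% and 2.45% were lower. By width, 12 of the 86 bins over 100 bases were higher (14%), against 10 of the 173 of 10 bases or less (5.78%). The shares lower were 4.65% and 5.2%. Of the 300 bins of 11 to 100 bases 7.67% were higher and 1% lower. The same splits were not made over all bins.

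The intron that follows a bin was tested in the same way, with the locus count as offset, over 9366 introns, of which 180 follow an alternative 5' bin. Reads of an intron that is retained also fall in the bin before it, so the pair of values shows whether a bin moved alone. At 22 °C, 9 of the 15 higher bins had a tested intron and 2 of these introns were higher, where 3.88% of all introns were. After 1 h it was 10 of the 18 tested among 34 higher bins, against 11.9% of all introns. After 24 h it was 9 of the 11 tested among 21 higher bins, against 14.9%. Untested introns had too few counts, so these shares leave out bins with few intron reads. Retained reads count in both, so introns behind higher bins are partly selected for rising. The shares are therefore no separate test. In gemin2 at 22 °C the intron after the AT3G55770 bin held 0.18%, 0.0492% and 0.24%. That after the OBE2 bin held 0.112%, 0.0324% and 0.0889%. Of the 180 introns 16, 35 and 50 were higher in the 3 conditions. In AT3G13120 at 22 °C the intron after the bin held 0.0628%, 0.29% and 0.102% in WT and 0.488%, 0.563% and 0.224% in gemin2, with overlap, and did not pass (log2 change 1.56, adjusted p = 0.0894). This intron rose by 2.69 after 1 h and 2.89 after 24 h on the log2 scale, beside 2.79 and 2.30 for the bin. In ECT4 after 24 h the intron held 1.13%, 0.798% and 1.12% in WT and 2.91%, 5.21% and 3.93% in gemin2, so that it changed by 2.01 on the log2 scale (adjusted p = 1.23e-05). In ATARI5 after 24 h the intron held 3.46%, 7.38% and 5.18% in WT and 12.2%, 16.8% and 15.5% in gemin2.

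Some called bins had an intron that did not pass or that moved the other way. The intron after the bin of FTSZ2-1 passed after 24 h (log2 change 2.01) but not at 22 °C (0.72, adjusted p = 0.288) or after 1 h (0.50, adjusted p = 0.353), while the bin passed each time. In UBQ10 after 1 h the bin fell and the intron rose, from 0.109%, 0.102% and 0.122% to 0.482%, 0.685% and 0.569% (log2 change 2.38, adjusted p = 1.13e-06). AVP1 and MMZ3 were pairs in which both fell. In AVP1 the intron fell from 0.509%, 0.533% and 0.333% to 0.244%, 0.108% and 0.155% (log2 change -1.40, adjusted p = 0.00204). In MMZ3 after 24 h the intron fell from 5.32%, 6.35% and 5.31% to 2.8%, 2.75% and 2.57% (log2 change -1.08, adjusted p = 0.0329).

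**Figure D5:**
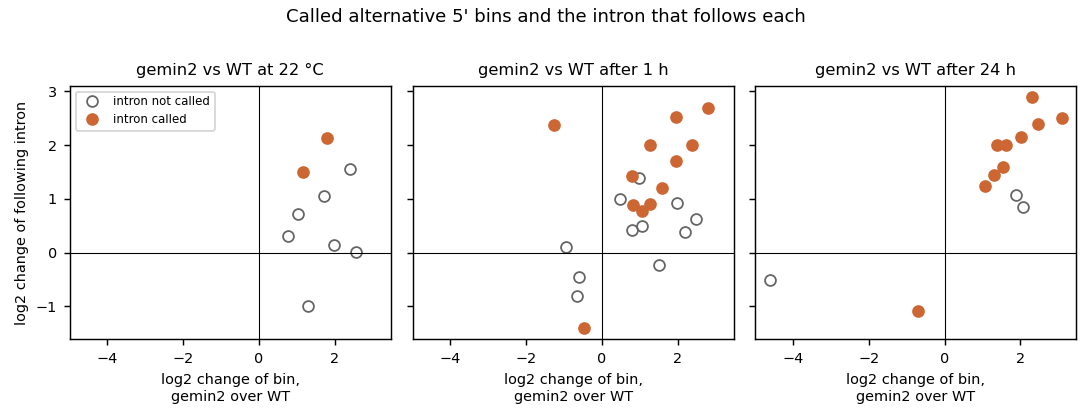
Log2 change, gemin2 over WT, of each called alternative 5' bin (x axis) and of the intron that follows it (y axis), for bins whose intron was tested, with a panel per condition. Filled points are introns called at an adjusted p under 0.05. After 24 h 9 of 11 introns behind higher bins are called higher, and after 1 h UBQ10 stands apart with a bin at -1.27 and an intron at 2.38.

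The response to cold was compared within each genotype. In WT after 1 h 18 bins rose and 14 fell, or 5.72% of the 559, against 5.54% of all bins (2.39% higher, 3.15% lower). After 24 h in WT 8 rose and 5 fell, or 2.33%, against 2.94% of all bins (1.5% higher, 1.44% lower). In gemin2 2 rose and 0 fell after 1 h, or 0.358%, against 0.578% of all bins (0.551% higher, 0.0263% lower), and 5 rose and 6 fell after 24 h, or 1.97%, against 4.33% (3.02% higher, 1.31% lower). At an unadjusted p under 0.05 there were 100 and 93 bins in WT (17.9% and 16.6%, beside 19.9% and 18% of all bins) and 30 and 64 in gemin2 (5.37% and 11.4%, beside 7.67% and 14.9%). Groups did not overlap in 122 and 104 bins in WT and in 81 and 92 in gemin2, where 24.5%, 20.8%, 15.6% and 21.5% of all bins showed no overlap. The WT comparisons share the libraries of WT at 22 °C, the gemin2 comparisons those of gemin2 at 22 °C, and each shares its cold libraries with a genotype comparison, so their calls are not counted against each other here.

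The WT counts rested on few libraries. After 1 h there were 3 calls without library B and 5 without library A of WT after 1 h, and 8 and 6 without libraries B and C of WT at 22 °C. After 24 h there were 4 calls without library B or without C of WT at 22 °C, 6 without library A or B of WT after 24 h and 8 without C. The gemin2 count after 24 h went from 11 to between 4 and 7 without any 1 library of the 2 groups compared, and that after 1 h to 1 without library B or C of gemin2 at 22 °C or C after 1 h. With the TMM factors of the bins added, the WT calls were 15 higher and 7 lower after 1 h and 5 and 18 after 24 h. With the shift of bin totals added they were 22 and 9, and 9 and 3. Without the locus offset and with TMM factors they were 93 and 110 after 24 h.

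The difference between the genotypes in the response to cold was tested itself, as the genotype by cold interaction, and 0 of the 559 bins passed for 1 h and 0 for 24 h by edgeR, where 0% and 0.0525% of all bins passed. There were 48 and 51 bins at an unadjusted p under 0.05 (8.59% and 9.12%, beside 9.58% and 10.3% of all bins), and DESeq2 also called 0 and 0. The smallest adjusted p was 0.216 for TPT at 1 h and 0.195 for HAM2, a MYST histone acetyltransferase, at 24 h. A bin called in the cold in WT and not in gemin2 is therefore not shown to differ between them.

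In WT after 1 h a rise was called in HMGB3, a chromatin protein with a high mobility group box, whose donors lie 4 bases apart within GTAAGT. It held 0.136%, 0.252% and 0.226% at 22 °C and 0.661%, 0.645% and 0.624% after 1 h, without overlap. The log2 change was 1.64 (SE 0.37, adjusted p = 0.0163), with adjusted p-values of 0.0521 to 0.0622 without WT A or B after 1 h or WT C at 22 °C. In gemin2 the values were 0.4%, 0.29% and 0.362% at 22 °C and 0.658%, 0.595% and 0.847% after 1 h (log2 change 1.00, adjusted p = 0.158). After 24 h WT held 0.264%, 0.273% and 0.252%, close to 22 °C. The other bin of HMGB3, E008, passed in none of the comparisons.

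ATEBP1 rose in WT after 1 h from 17.4%, 15.2% and 9.66% to 31.8%, 35.1% and 23.7% (log2 change 1.10, adjusted p = 0.0357), and AT1G22430 from 1.86%, 1.59% and 0.968% to 2.85%, 3.18% and 3.46% (log2 change 1.12, adjusted p = 0.0359). These calls were lost in 4 and 5 of 18 leave-one-out fits, with adjusted p-values of 0.153 and 0.172 without library C of WT at 22 °C. AT4G31170 fell from 2.82%, 1.76% and 2.14% to 0.938%, 0.724% and 0.515% (log2 change -1.66, adjusted p = 0.0209), a call lost in 5 of these fits with an adjusted p up to 0.0892 without library B of WT after 1 h. YLMG2, a plastid protein of the YGGT family, fell from 8.36%, 11.6% and 12.7% to 3.81%, 4.9% and 7.03% (log2 change -1.05, adjusted p = 0.0251), lost in 4 of these fits with an adjusted p up to 0.115 without the same library.

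ATBZIP34, a bZIP transcription factor gene, fell in WT after 1 h from 8.73%, 11.7% and 6.9% to 3.31%, 3.75% and 4.48%. The log2 change was -1.21 (SE 0.22, adjusted p = 0.00687), and the adjusted p stayed at or below 0.0425 in the leave-one-out fits, but without the locus offset the change was 0.422, since the locus count itself rose by 1.64 on the log2 scale. After 24 h the bin held 4.67%, 4.67% and 4.01% (log2 change -0.998, adjusted p = 0.0406, lost in 7 leave-one-out fits, with 0.137 without library B of WT at 22 °C).

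After 24 h in WT, 2 rises were in genes for ubiquitin-conjugating enzyme variants. MMZ3 rose from 10.6%, 10.1% and 10.0% to 17.8%, 17.1% and 18.7% (log2 change 0.80, SE 0.16, adjusted p = 0.00847). UEV1D-4 rose from 7.97%, 5.9% and 5.15% to 9.84%, 10.9% and 12.2% (log2 change 0.80, SE 0.19, adjusted p = 0.0208), a call lost in 4 leave-one-out fits with an adjusted p up to 0.112 without library C of WT at 22 °C. In gemin2 UEV1D-4 rose from 4.38%, 6.25% and 4.6% to 8.34%, 9.19% and 10.6% (log2 change 0.89, adjusted p = 0.00517). MMZ3 in gemin2 held 9.69%, 6.38% and 7.86% at 22 °C and from 10.1% to 11.9% after 24 h, a log2 change of 0.48 with an adjusted p of 0.112.

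ATARI5 rose in both genotypes after 24 h. In WT it went from 1.02%, 0.902% and 2.26% to 2.69%, 3.56% and 2.27% (log2 change 1.01, adjusted p = 0.0414), a call lost in 13 of 18 leave-one-out fits, with an adjusted p of 0.159 without library B of WT after 24 h. In gemin2 it went from 3.16%, 3.21% and 3.31% to 6.54%, 7.28% and 7.67% (log2 change 1.15, SE 0.18, adjusted p = 5.19e-04), and this call was kept in each leave-one-out fit. AT3G01310 rose in WT from 2.39%, 1.41% and 1.35% to 3.66%, 3.47% and 3.17% (log2 change 0.99, adjusted p = 0.019), lost in 3 of these fits with an adjusted p of 0.112 without library C of WT at 22 °C. AT5G47620, an RNA-binding protein gene with donors 8 bases apart, fell in WT from 1.39%, 2.73% and 2.48% to 0.781%, 0.865% and 1.11% (log2 change -1.24, adjusted p = 0.0339), lost in 5 fits with 0.126 without the same library.

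In gemin2 after 1 h the called bins were those of CP29 and AT5G62130, a Per1-like protein gene. CP29 rose from 0.0366%, 0.0402% and 0.0548% to 0.134%, 0.244% and 0.175% (log2 change 2.06, SE 0.34, adjusted p = 0.0036). After 24 h the CP29 bin of gemin2 was back at 0.0414%, 0.0729% and 0.0818%. AT5G62130 rose from 1.08%, 0.541% and 0.359% to 2.56%, 3.48% and 3.54% (log2 change 2.22, adjusted p = 0.0239), lost in 4 leave-one-out fits with an adjusted p up to 0.214 without library B of gemin2 at 22 °C. The WT libraries of the AT5G62130 bin held 0 to 9 counts, so it passed the count filter only through gemin2 in the cold. The intron behind each bin rose as well, by 2.38 for CP29 and 1.79 for AT5G62130.

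After 24 h in gemin2 SAG21, a late embryogenesis abundant protein gene of stress and senescence, rose from 0.148%, 0.155% and 0.165% to 0.534%, 0.22% and 0.492% (log2 change 1.38, adjusted p = 0.0428). The call was lost in 8 of 18 leave-one-out fits, with an adjusted p up to 0.154 without library C of gemin2 after 24 h. AT3G05560 rose from 0.848%, 0.77% and 0.897% to 2.74%, 1.96% and 2.24% (log2 change 1.46, adjusted p = 0.0272), lost in 5 fits with 0.115 without library B of gemin2 at 22 °C. DFD, a folylpolyglutamate synthase gene, fell from 11.4%, 15.5% and 11.3% to 6.47%, 3.9% and 4.27% (log2 change -1.46, SE 0.29, adjusted p = 0.00475), and the adjusted p stayed at or below 0.0457. In WT after 24 h the DFD libraries were at 1.45%, 10.4% and 12.9%, a spread wider than the change in gemin2. The other bin of DFD, E010, passed in none of the comparisons. SOS4, a pyridoxal kinase gene named for salt sensitivity, fell from 3.21%, 3.43% and 6.35% to 0.901%, 1.49% and 0.906% (log2 change -1.92, adjusted p = 0.0204), lost in 3 fits with 0.114 without library C of gemin2 at 22 °C. The libraries of WT went from 2.85%, 2.02% and 4.96% to 0.847%, 1.38% and 0.532%, without a call.

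Genes of the splicing machinery, the clock, the cold response and flowering were followed as lists. Of 15 loci of U1 snRNP and donor recognition factors and of 23 cold response loci, 0 held an alternative 5' bin among the 559. Of 34 loci of SR, hnRNP and U2AF splicing factors 7 held a bin, and 2 of the 7 passed in 1 comparison each. U2AF35A, the small subunit of the factor that binds the acceptor site, rose in WT after 1 h from 9.12%, 10.3% and 7.7% to 21.1%, 18.4% and 15.3% (log2 change 1.02, adjusted p = 0.0285). The call was lost in edgeR's robust fit (adjusted p = 0.0549) and in 5 leave-one-out fits with an adjusted p up to 0.12 without library C of WT at 22 °C, and the bin of 153 bases in the 5' UTR overlaps another gene, AT1G27640. In gemin2 after 1 h its libraries held 16.8%, 8.17% and 7.45%.

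RS31a, an SR protein, was higher in gemin2 after 1 h, with 16.1%, 16.5% and 19.0% in WT and 29.2%, 23.2% and 36.4% in gemin2 (log2 change 0.78, adjusted p = 0.0314). Its bin of 556 bases overlaps AT2G09740, and the call was lost without the locus offset (TMM 0.455, RLE 0.441) and with the TMM factors or the shift of bin totals added to it (0.262 and 0.0689), though not with the bin's own reads taken out of the offset (0.0209), and without WT A, WT B or gemin2 C (0.106, 0.124 and 0.188). The bins of UBP1B, SRZ-21, PTB, U2AF65A and RS41 passed in none of the comparisons. Over the 7 bins the median log2 change in gemin2 was 0.03, 0.21 and 0.24 at 22 °C, 1 h and 24 h, beside 0.02, 0.09 and 0.07 over all bins. Of 30 clock loci 1 held a bin (ADO2), and of 19 flowering loci 3 did (FLM, SVP and FCA), and 0 of these passed in any comparison. At the level of whole genes 4 of the 15 loci of U1 and donor factors were higher and 2 lower in gemin2 at 22 °C, where 11.3% of 21918 genes tested were higher and 9.8% lower. After 1 h 5 were higher and 2 lower (17.6% and 17% of all genes), and after 24 h 10 were higher and 1 lower (21.7% and 18.5% of all genes).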

How the data were processed

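Poly(A) RNA of 18 libraries in 6 groups of 3 was sequenced. Per the submitters' processing notes the authors used TopHat2 2.0.9, TAIR10, R 3.0.2 and edgeR 3.4.2; which program counted the reads, and whether by strand, is not given in the sources used here. As deposited by the authors, the tables hold whole-number counts per gene, per intron and per splicing bin. The authors' tables of comparisons were not used. Columns carry the letters A, B and C, which no source ties to the labelled replicates 1 to 3, so a column was assigned to its group only. Deviations of WT and gemin2 libraries with the same letter correlated at 0.0675, 0.0505 and 0.0433 at 22 °C, 0.1143, -0.1703 and 0.1806 after 1 h and 0.3023, 0.2803 and 0.1379 after 24 h. Unlike letters ran from -0.1349 to 0.0874, from -0.2981 to 0.2188 and from -0.2608 to 0.0544. Same letters stood above unlike ones after 24 h only, which is known from the data and not from the labels. No fit paired libraries after 24 h alone. The reported fit has no block, and the letter block spans all 18 libraries.

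Bins passing the limits given at the start of the results were tested with edgeR's quasi-likelihood test (edgeR 4.0.16, limma 3.58.1, R 4.3.3) over 6 groups with the log locus count as offset, and adjusted by Benjamini and Hochberg over 3809 bins at a threshold of 0.05. Introns (9366) were tested likewise and genes (21918) with TMM factors. An SE is the log2 change over the square root of F. Coordinates of 120414 introns gave GT and AG ends in 98.67% of cases in the RefSeq TAIR10.1 sequence. Alternatives were DESeq2 1.42.0, other scalings, filters, a minimum log2 change of 1, a fit of the compared groups alone, a letter block and each library left out. After the first calls 8 edgeR settings were looked at, and the default first planned is reported. The test was also run on simulated counts with 1 fixed spread and no outlying library. That run therefore says nothing on how the test behaves with the uneven libraries here.

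The naming rule took, among called bins averaging 20 or more counts whose libraries did not overlap, the largest 6 rises and falls of a genotype comparison and the largest 3 of a cold comparison, up to 8 bins called in all 3 genotype comparisons, called bins of the lists, and the 3 highest. Bins described outside this rule, added after their values were seen, are AT2G46420, SNRK2.2, AT1G63855, AVP1, AT5G62130 and HAM2, and so are further comparisons of bins that the rule names. The members and lists were chosen with earlier results of these data known. Intervals and floors cover counting error only.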

Additional observations from a re-analysis of the deposited data

How the results depend on the processing

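Of 72 named results 28 kept their call in each of the alternatives run, and of 2220 recomputed values 246 lost the call and 8 turned. Those that turned were, without the locus offset (TMM, RLE), AT1G22430 after 1 h (-0.0338, -0.0272), SQP1 (0.0868, 0.0817) and ATCUL1 (0.202, 0.195) after 24 h and ATBZIP34 in the cold in WT (0.422, 0.398). In the order gemin2 at 22 °C, 1 h and 24 h, cold in WT at 1 h and 24 h and in gemin2 at 1 h and 24 h, the 15, 45, 27, 32, 13, 2 and 11 calls became 53, 90, 116, 65, 203, 11 and 214 with TMM and 52, 93, 114, 64, 203, 11 and 214 with RLE factors without the offset, which lets changes of the whole locus in, and the 24 h interaction went from 0 to 21 under both. With TMM factors of the bins there were 119 at 1 h and 23 for WT at 24 h. A log2 change of at least 1 left 26, 12 and 6 calls at 1 h and in WT at 1 h and 24 h. A mean of 20 counts left 17 at 24 h and 1 in gemin2 at 1 h, and no filter gave 41 at 24 h. With only the compared groups 3 were left in WT at 24 h and 1 in gemin2 at 1 h, and DESeq2 called 25 in WT at 24 h. With the library letter as a block there were 75 calls at 1 h, 48 at 24 h, 51 in WT at 1 h and 25 in WT at 24 h, and the other counts stayed within 1.5 times. Except where given, the cause was not tested.

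Leaving out 1 library gave 8 to 20, 15 to 81, 17 to 45, 3 to 41, 4 to 15, 1 to 3 and 4 to 13 calls in that order, and 0 for the interactions. Depth limits the size of the rises of SNRK2.2, OBE2 and AT2G46420, whose WT groups held 0, 1 and 2 counts.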
